A study of Mus musculus with 6 samples.

Results

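Cytosolic ribosomal protein genes were described across 6 arrays of injured and control mouse nerve, dorsal root ganglion (DRG) and spinal cord. Members were all genes of the array whose symbol was Rpl or Rps followed by a number, with or without closing letters, together with Rplp0, Rplp1, Rplp2 and Rpsa, leaving out kinases of the Rps6k family and pseudogenes. The rule used symbols and no measured value. It gave 61 genes read by 78 probes, among 16593 genes and 25697 probes. Of the 61 genes, 38 belonged to the large and 23 to the small ribosomal subunit.

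The study transected the sciatic nerve of adult female C57Bl6 mice on the left side and profiled total RNA on Illumina bead arrays. The arrays held injured nerve on day 1, injured nerve on day 5, sham nerve, L4/5 DRG of the injured side on day 5, sham DRG, and spinal cord on day 5. The proximal and distal stumps of a transected nerve were pooled, and according to the labels the RNA of 6 animals was pooled for every array. The control nerve and DRG are normal tissue of the right side in the labels and sham-operated tissue in the study's account, and they are called sham here. The day 5 nerve was taken as such from its source name, although its title ends with the code of day 1. There was no spinal cord of uninjured mice among the arrays, so that the cord could be compared only with another tissue.

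Every condition was 1 array, so the conditions could not be tested against each other and no difference has a replicate check. A comparison is a difference between 2 arrays, given as log2 of the ratio of their signals after all arrays had been brought to the same median signal. Intervals are 95% intervals from the spread of a probe's beads on an array. They hold technical error only, not the variation between animals.

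The ribosome reads mRNA with its small subunit and joins amino acids with its large subunit, and each subunit is ribosomal RNA wrapped in a fixed set of small, mostly basic proteins. The genes of these proteins are among the most strongly expressed of every cell, and their products are needed in nearly equal numbers. Their mRNAs begin with a tract of pyrimidines, the 5′ terminal oligopyrimidine tract (5′TOP), through which mTOR signalling sets their translation. Injured peripheral nerve loses its axons, its Schwann cells leave the myelinating state and divide, and white blood cells enter, while sensory neurons in the DRG begin to regrow their axons.

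RefSeq promoters on the mouse build GRCm38.p6 were matched by symbol for 52 of the 61 members, with 63 start sites. The pyrimidine run CTTTC, searched on the strand of the gene between 15 bases before and 25 bases after the start, stood in 14 of the 63 promoters (22.2%), beside 5.28% of 32851 promoters of all genes. Searched on either strand of the same stretch, it stood in 25.4% of member promoters and in 10.1% of all. Over the whole stretch of 250 bases before to 50 after the start, either strand, the shares were 81.0% and 57.3%. The letters CCGGAAG, the core of sites bound by ETS-family factors, stood on either strand of the whole stretch in 34.9% of member promoters and in 8.86% of all. The motifs do not contain each other, they were chosen after the promoters had been seen, and a match is a run of letters and not a shown binding site. Those of Rplp0 and Rpl13a, which passed 2-fold in injured nerve, are not printed. The promoters of 8 other members named below are printed 5′ to 3′ on the strand of the gene, with CTTTC in capitals. They run from 60 bases before the start to 30 bases into the transcript.
Rpl12, chr2:32961652-32961741, plus strand: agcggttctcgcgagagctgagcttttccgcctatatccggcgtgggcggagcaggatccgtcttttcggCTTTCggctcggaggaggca
Rpl35, chr2:39005102-39005191, minus strand: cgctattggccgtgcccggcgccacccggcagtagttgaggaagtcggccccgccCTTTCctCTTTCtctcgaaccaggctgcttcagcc
Rpl28, chr7:4792905-4792994, plus strand: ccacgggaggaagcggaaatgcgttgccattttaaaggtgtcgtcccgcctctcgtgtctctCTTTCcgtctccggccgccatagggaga
Rpl36al, chr12:69184038-69184127, minus strand: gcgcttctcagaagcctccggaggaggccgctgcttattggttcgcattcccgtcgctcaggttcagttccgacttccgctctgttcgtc
Rps26, chr10:128626477-128626566, minus strand: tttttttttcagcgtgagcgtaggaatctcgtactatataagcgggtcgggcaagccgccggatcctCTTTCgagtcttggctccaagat
Rps2, chr17:24720003-24720092, plus strand: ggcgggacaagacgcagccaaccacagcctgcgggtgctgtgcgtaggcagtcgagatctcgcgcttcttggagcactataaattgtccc
Rps16, chr7:28350629-28350718, plus strand: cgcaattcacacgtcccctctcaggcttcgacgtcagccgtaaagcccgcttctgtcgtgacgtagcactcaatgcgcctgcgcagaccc
Rps15a, chr7:118116118-118116207, minus strand: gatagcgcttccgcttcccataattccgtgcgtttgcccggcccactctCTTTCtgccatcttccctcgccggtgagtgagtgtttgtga
The capitals stand before or after the start in Rpl12, Rpl35, Rpl28, Rps26 and Rps15a, and the stretches of Rpl36al, Rps2 and Rps16 hold none.

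Of the 61 members, 54 were detected on all 6 arrays, at a detection p under 0.05 against the negative controls of each array. Rpl6 and Rpsa, whose product sits on the small subunit and also binds laminin, were detected on the day 1 nerve array alone, close to background (scaled signals 120 and 131). The probes of Rpl14, Rpl17, Rpl39l, Rplp2 and Rps23 were not above background on any array. All but Rpl39l, a copy of Rpl39 known mainly from testis, are genes that every cell uses, so a probe at background gives no level of its gene. For the 54 detected members the signal on the sham nerve array had a median of 9934, beside 13298 on day 1 and 14340 on day 5. The medians were 6052 in cord, 7046 in day 5 DRG and 6604 in sham DRG. A probe's signal depends on its sequence, so signals are compared between arrays and not between genes.

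The 61 members together gave 5.41% of the summed signal of all probes in day 1 nerve (95% bead interval 5.32 to 5.49) and 6.06% in day 5 nerve (5.95 to 6.16), against 4.63% in sham nerve (4.54 to 4.73). They gave 3.44% in day 5 DRG (3.37 to 3.50) against 3.09% in sham DRG (3.03 to 3.14). The cord array stood at 3.31% (3.25 to 3.37). The 3 nerve arrays thus lay above the other 3 arrays, and their intervals did not overlap with those of DRG or cord. The 5 brightest member probes of each array were then left out, and these were not the same 5 on all arrays. The shares became 3.93% on day 1 and 4.41% on day 5, against 3.29% in sham nerve. They were then 2.34% in day 5 DRG against 2.14% in sham DRG, and 2.32% in cord.

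**Figure D1:**
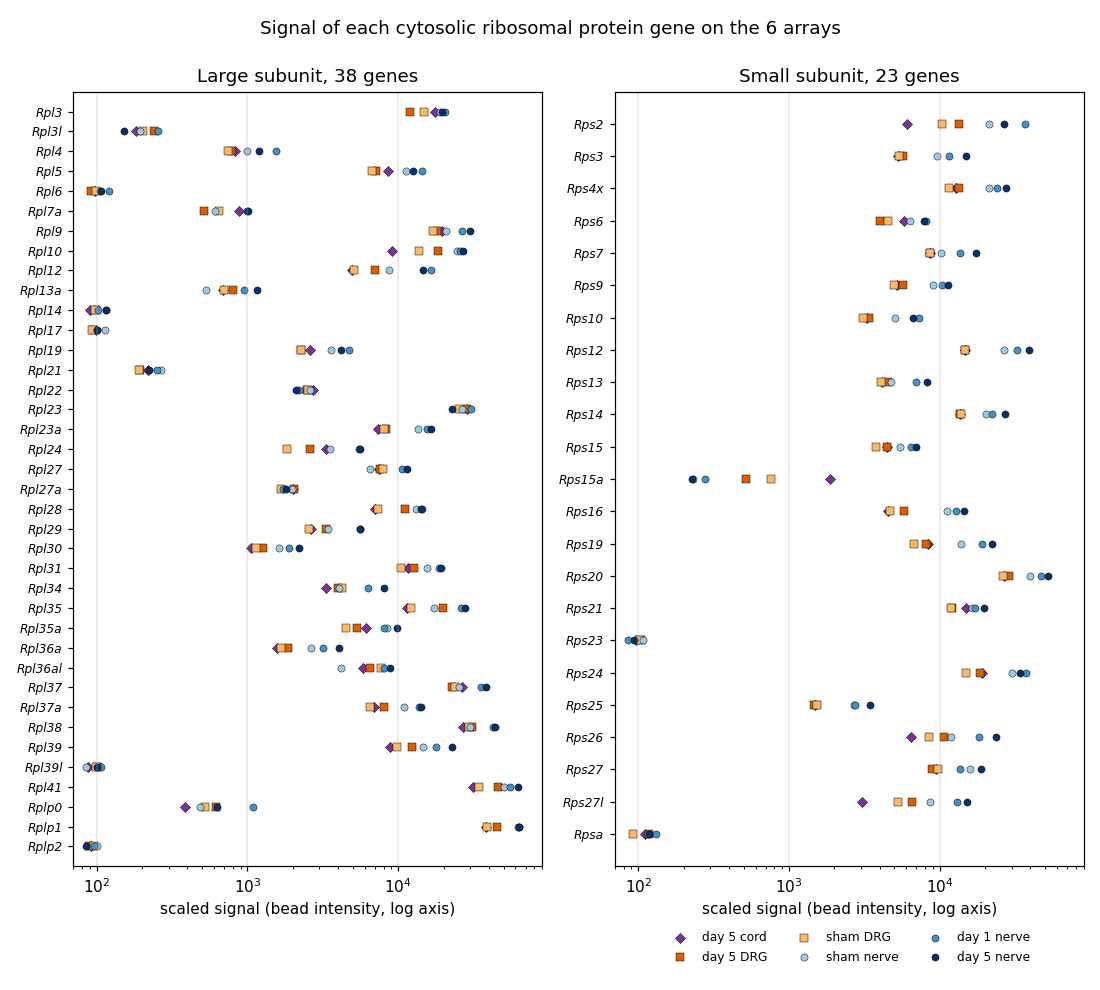
Scaled signal (log axis) of the 38 large subunit and 23 small subunit genes on the 6 arrays, 1 point per array. Circles of nerve lie to the right of the squares of DRG and the diamond of cord for most genes, Rps15a lies the other way, and the 7 genes with all points near 100 were not detected on all arrays.

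Tissue labels were checked with marker genes. The 6 sensory neuron markers were all detected on both DRG arrays (summed signal 31909 on day 5 and 35145 in sham), and 0 to 3 of them on the nerve arrays (601 to 744). All 9 markers of cord neurons and glia were detected in cord, with a summed signal of 45414. They were also all detected in day 1 nerve, at a sum of 3292, against 2 of 9 and a sum of 1001 in sham nerve. In sham DRG 7 of the 9 were detected, at a sum of 4049, beside 3 of 9 and a sum of 999 in day 5 DRG. The day 1 nerve and sham DRG pools thus held more signal of cord markers than the other nerve and DRG pools. Other cells moved with the nerve conditions. The 5 neutrophil markers summed to 30220 on day 1 and 3119 on day 5, against 807 in sham nerve, where Cxcr2 and S100a9 were not detected. Of the 4 detected in day 5 or sham nerve, 3 were higher on day 5 and 1 was lower, at a log2 difference of -0.82. The 4 macrophage markers summed to 40411 on day 1 and 79000 on day 5, against 10627 in sham nerve. The 4 myelin markers of Schwann cells summed to 100817 on day 1 and 56706 on day 5, against 108301 in sham nerve. Adipocyte markers summed to 2880 on day 1 and 2921 on day 5, against 12728 in sham nerve. Markers of dividing cells summed to 606 on day 1 and 3367 on day 5, against 437 in sham nerve. The part of these changes in cell makeup in the values of the ribosomal protein genes was not tested. In pooled bulk tissue, a change in the number of cells that express a gene strongly and a change in the RNA of each cell cannot be told apart.

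On day 1 after transection most ribosomal protein genes gave a somewhat higher signal in injured nerve than in sham nerve. Of 56 members detected in either array, 50 were above 0 and 6 below, and the median log2 difference was 0.29, which is 1.22-fold. Over all 10234 genes so detected the median was -0.01, with 49.0% above 0. The bead interval lay above 0 for 34 members and below 0 for 2, beside 2955 and 2623 of the 10234 genes. A 2-fold difference, the study's own threshold, was reached by 1 member upward and 0 downward, beside 6.54% of all genes upward and 3.59% downward. At 1.5-fold, 14 of 56 members were higher and 0 lower, beside 14.2% and 10.8% of all genes. The members' shift was thus small and spread over many genes, and at 2-fold their share lay under that of all genes.

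Large subunit genes had a median of 0.34 on day 1 (34 detected) and small subunit genes 0.27 (22 detected). Rplp0, the base of the stalk that recruits elongation factors to the large subunit, was the member past 2-fold. Its signal was 1089 in day 1 nerve and 623 in day 5 nerve against 482 in sham nerve, and the day 1 difference was 1.18 (interval 0.93 to 1.42). It was a dim probe with its highest value in day 1 nerve, and the other probe of the gene was detected on 0 arrays. Rplp1, a stalk protein bound to Rplp0, gave 63642 on day 1 and 63429 on day 5 against 62125 in sham nerve, a difference of 0.03 on each day. Its probe was the brightest of all probes on the 3 nerve arrays. The highest raw signals there were 64802 on day 1 and 62272 on day 5 against 57740 in sham nerve, and whether the upper end of the scanner's range held these values together was not tested.

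Among brighter members, Rpl36al, a near copy of Rpl36a at the tRNA exit site of the large subunit, had 8071 in day 1 nerve against 4152 in sham nerve (0.96, interval 0.76 to 1.16). Rpl12, which sits at the stalk base, had 16577 against 8754 (0.92, interval 0.68 to 1.16). Rps2, at the channel through which mRNA enters, had 36729 against 21215 (0.79, interval 0.50 to 1.09). These 3 genes were each between 1.73-fold and 1.94-fold higher. Whether the members' differences go with the capitals printed above was not tested. Rpl13a, known also as a translation inhibitor of inflammatory mRNAs in activated monocytes, had a dim probe at 943 against 535 (0.82, interval 0.50 to 1.14).

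The lowest day 1 differences were small. Rpl22, an RNA-binding protein of the large subunit that cells can do without where its copy Rpl22l1 takes over, had 2193 in day 1 nerve against 2603 in sham nerve (-0.25, interval -0.45 to -0.04). Rps27 had 13702 against 15783 (-0.20, interval -0.39 to -0.02). These were the 2 members whose interval lay below 0. Rpl27a at -0.20, Rpl21 at -0.09 and Rpl35a at -0.06 had intervals that held 0, and the dim Rpl22l1, outside the symbol rule, stood at 0.01.

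On day 5 the members' median was 0.37 above sham nerve, or 1.29-fold, with 48 of 54 above 0, while the median of all 10121 genes was -0.02 and 48.0% of them lay above 0. The comparison shares its sham array with that of day 1, so the 2 are not independent. The bead interval lay above 0 for 40 members and below 0 for 2, beside 2763 and 2777 of the 10121 genes. At 2-fold, 2 members were higher and 0 lower, beside 6.30% and 5.09% of all genes. At 1.5-fold, 18 were higher and 0 lower, beside 13.3% and 12.5%. The medians of the 2 subunits were 0.37 for large (33 detected) and 0.38 for small subunit genes (21 detected).

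The 2 members past 2-fold on day 5 were Rpl13a, at 1164 in day 5 nerve against 535 in sham nerve (1.12, interval 0.83 to 1.42), and Rpl36al, at 8846 against 4152 (1.09, interval 0.92 to 1.26). Rps26, which lies where mRNA leaves the small subunit, had 23571 against 11885 (0.99, interval 0.70 to 1.28). Rpl34 had 8060 against 4073 (0.98, interval 0.77 to 1.20), and Rpl27 had 11466 against 6478 (0.82, interval 0.61 to 1.04). On day 1 the differences from the same sham array were 0.82 for Rpl13a, 0.96 for Rpl36al, 0.63 for Rps26, 0.63 for Rpl34 and 0.71 for Rpl27. All of these probes were bright but that of Rpl13a.

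At the other end stood Rpl3l, a copy of Rpl3 used in heart and skeletal muscle, with a dim probe at 151 in day 5 nerve against 195 in sham nerve (-0.37, interval -0.60 to -0.13). Skeletal muscle markers summed to 3208 on day 1 and 5582 on day 5, against 7817 in sham nerve, while Rpl3l itself stood at 256 on day 1, and their part in its values was not tested. Rpl22 had 2099 in day 5 nerve (-0.31, interval -0.49 to -0.13). Rpl3l and Rpl22 were the 2 members whose interval lay below 0, while the intervals of Rpl21 (-0.26), Rpl23 (-0.23) and Rpl27a (-0.13) held 0. Rps15a was at 228 on day 5 against 230 in sham nerve.

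**Figure D2:**
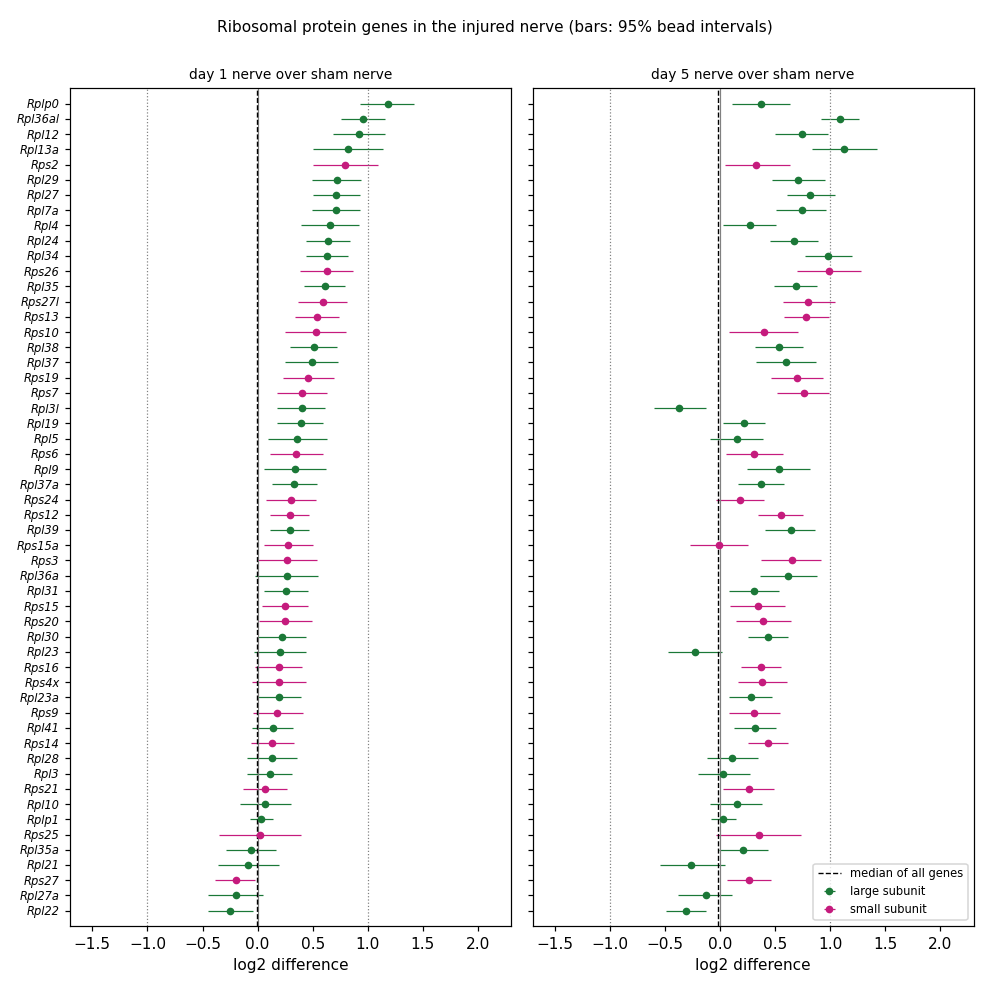
Log2 difference of the 54 members detected on all arrays, day 1 nerve over sham nerve and day 5 nerve over sham nerve, ordered by the day 1 value, with 95% bead intervals as bars. Most points lie between 0 and 1 in both panels, to the right of the dashed median of all genes, and few pass the dotted 2-fold lines.

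The 2 injured nerve arrays differed little from each other. Day 5 over day 1 had a median of 0.08 over 56 members, with 36 above 0 and 20 below, beside -0.02 over 10406 genes. No member was 2-fold higher or lower, where 3.25% and 4.65% of all genes were. At 1.5-fold 0 were higher and 2 lower, beside 8.42% and 11.7%. The 2 were Rplp0 (-0.81, interval -1.02 to -0.59) and Rpl3l (-0.76, interval -1.01 to -0.52), both dim. Large subunit genes had a median of 0.03 and small subunit genes of 0.19. Of small subunit genes, Rps27 was highest at 0.47 (interval 0.27 to 0.66), followed by Rps3, which lines the mRNA entry, at 0.38 (interval 0.12 to 0.63). Rps2 was lowest of them at -0.46 (interval -0.75 to -0.17). Of the 54 members detected throughout, 35 had their highest signal of all 6 arrays in day 5 nerve and 15 in day 1 nerve. The highest array was not counted over all genes. In 33 of the 54 the signal rose from sham to day 1 to day 5 nerve, beside 17.2% of the 7637 genes detected on all arrays.

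The DRG of the injured side differed from the sham DRG by less. The median over 54 members was 0.16, or 1.12-fold, with 41 above 0 and 13 below, beside a median of 0.00 over 10191 genes, of which 49.9% lay above 0. The bead interval lay above 0 for 23 members and below 0 for 4, beside 1691 and 1824 of the 10191 genes. No member reached 2-fold, where 0.854% of all genes were higher and 0.324% lower. At 1.5-fold 2 members were higher and 0 lower, beside 2.87% and 2.24%. The 2 were Rpl35, at the exit of the peptide tunnel, with 19930 in day 5 DRG against 12236 in sham DRG (0.70, interval 0.52 to 0.89), and Rpl28, with 11132 against 7381 (0.59, interval 0.33 to 0.86).

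Rpl24, which bridges the subunits, had 2610 in day 5 DRG against 1833 in sham DRG (0.51, interval 0.31 to 0.71), Rpl12 had 7002 against 5104 (0.46), and Rpl10, added last to the large subunit, had 18436 against 13639 (0.43). The lowest was Rps15a, with 518 against 757 (-0.55, interval -0.75 to -0.35). Rpl7a had 513 against 647 (-0.34, interval -0.58 to -0.09). Rpl3, near the catalytic centre, had 12028 against 14745 (-0.29), and Rpl36al had 6533 against 7744 (-0.25). These 3 were the other members whose interval lay below 0. Rps6, the protein that S6 kinases phosphorylate, was at -0.17 (interval -0.35 to 0.01). The SD of the difference across members was 0.23. The median bead half-interval was 0.20, which is 1.96 standard errors and so cannot be set directly against an SD. Macrophage markers summed to 8431 in day 5 DRG against 3535 in sham DRG. Cord markers summed to 999 in day 5 DRG against 4049 in sham DRG, with 6 of 8 detected at least 2-fold lower, 0 higher and a median of -1.59. The part of either in the members' values was not tested.

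Sham DRG over sham nerve had a median of -0.55 over 54 members, or 0.681-fold, with 8 above 0 and 46 below, while the median of 10397 genes was -0.05 and 45.7% of them lay above 0. The bead interval lay below 0 for 41 members and above 0 for 4, beside 3653 and 3238 of the 10397 genes. At 2-fold 1 member was higher and 4 were lower, beside 12.0% and 11.0% of all genes. At 1.5-fold 2 were higher and 25 lower, beside 19.7% and 20.7%. Small subunit genes had a median of -0.70 and large subunit genes of -0.49. This comparison shares its sham nerve array with those of the injured nerve. Cord markers summed to 4049 in sham DRG against 1001 in sham nerve, and neutrophil markers to 8604 against 807, and their part was not tested.

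The 4 members at least 2-fold lower in sham DRG were all of the small subunit. Rps16, whose tail reaches the tRNA in the P site, had 4667 in sham DRG against 11242 in sham nerve (-1.27, interval -1.46 to -1.07). Rps2 had 10313 against 21215 (-1.04), Rps19, a gene mutated in Diamond-Blackfan anaemia, had 6744 against 13805 (-1.03), and Rps24 had 14936 against 30137 (-1.01). Rps2, Rps19 and Rps24 lay next to the 2-fold line, and their bead intervals, with upper ends of -0.76, -0.80 and -0.78, crossed it. Just short of it were Rpl24, with 1833 against 3502 (-0.93), and Rpl35a, with 4491 against 8431 (-0.91). Rpl36al went the other way, with 7744 in sham DRG against 4152 in sham nerve (0.90, interval 0.72 to 1.08), as did Rpl13a (0.39), Rpl27 (0.29) and Rplp0 (0.12, interval -0.14 to 0.38).

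Rps15a stood apart from the other members. Its scaled signal was 1881 in cord, 518 in day 5 DRG, 757 in sham DRG, 230 in sham nerve, 279 in day 1 nerve and 228 in day 5 nerve. It had the widest range over the arrays, 8.26-fold, where the median range of members was 2.15-fold and that of all genes detected throughout was 2.08-fold. It was 1.72 higher in sham DRG than in sham nerve (interval 1.51 to 1.93) and 1.86 higher in cord than in day 5 DRG (interval 1.67 to 2.06). It was the 1 member of 54 with all 3 nerve arrays below DRG and cord. A single probe reads the gene, ribosomal protein genes have many processed pseudogenes, and whether that probe reads Rps15a alone was not tested, since no probe sequence was used here.

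Spinal cord over day 5 DRG had a median of -0.09 over 54 members, with 22 above 0 and 32 below, beside -0.03 over 10388 genes. At 2-fold 1 member was higher and 3 were lower, beside 6.08% and 7.51% of all genes. At 1.5-fold 2 were higher and 7 lower, beside 12.5% and 16.1%. The direction of the median depended on the scaling, and under 5 other settings it lay between 0.02 and 0.23. Beside Rps15a, Rpl7a was higher in cord, with 884 against 513 in day 5 DRG (0.79, interval 0.56 to 1.01), as were Rpl3, with 17450.4 against 12028 (0.54), and Rps6, with 5836 against 4047 (0.53). Lower in cord were Rps2, with 6029 against 13355 (-1.15, interval -1.39 to -0.90), Rps27l, with 3060 against 6594 (-1.11, interval -1.30 to -0.92), and Rpl10, with 9094 against 18436 (-1.02, interval -1.23 to -0.81). Rpl35 had 11381 against 19930 (-0.81) and Rps26 had 6487 against 10613 (-0.71).

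The differences between tissues ran across most members. In 40 of the 54 detected throughout, all 3 nerve arrays lay above both DRG arrays and the cord array, an order shown by 26.2% of 7637 genes detected on all arrays. The lowest of the 6 arrays was sham DRG for 21 members, cord for 18 and day 5 DRG for 8. The lowest array was not counted over all genes. The 14 members outside this order were Rpl13a, Rpl22, Rpl23, Rpl27, Rpl27a, Rpl34, Rpl35, Rpl36al, Rpl37, Rpl38, Rpl3l, Rpl7a, Rplp0 and Rps15a. All of these but Rps15a belong to the large subunit, which holds 33 of the 54 members detected throughout. No test was possible, since each tissue and condition is 1 array.

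**Figure D3:**
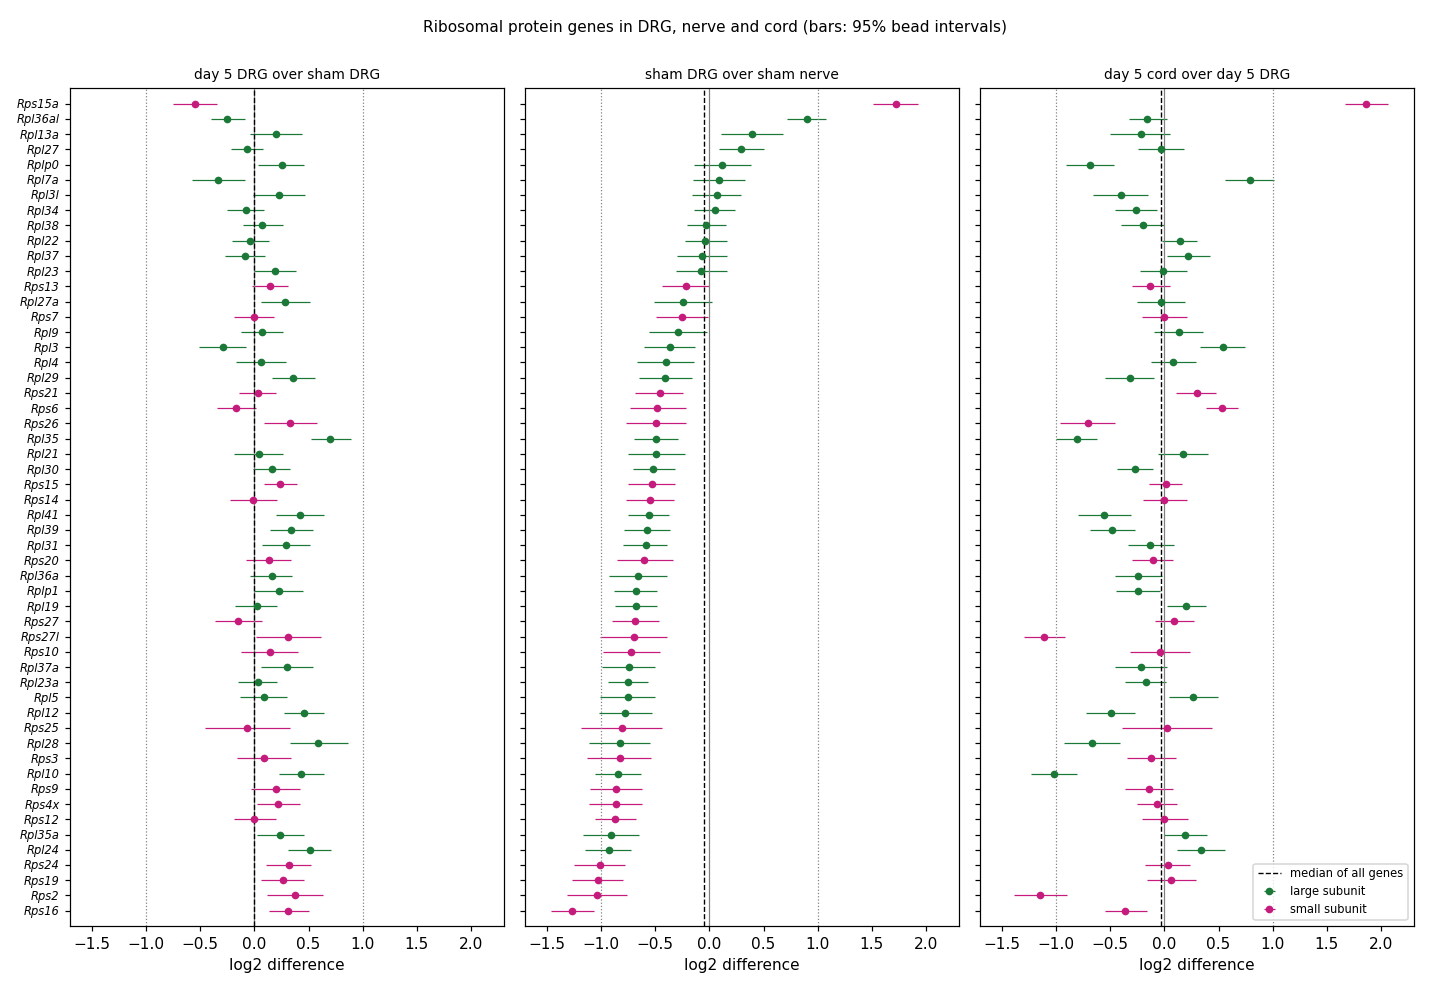
Log2 difference of the 54 members for day 5 DRG over sham DRG, sham DRG over sham nerve, and day 5 cord over day 5 DRG, ordered by the middle panel, with 95% bead intervals as bars. The middle panel lies mostly left of 0, with Rps15a at 1.72, while the left panel lies mostly within 0.5 of 0.

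Of members with the letters of a copy, Rps27l, a p53-induced copy of Rps27, was 0.59 above sham nerve on day 1 (12996 against 8652) and 0.80 on day 5 (15073 against 8652), where Rps27 was at -0.20 and 0.26 (18913 on day 5 against 15783 in sham nerve). In cord Rps27l was at -1.11 over day 5 DRG and Rps27 at 0.09 (9441 against 8850.0). Rpl36al and Rpl36a were both above sham nerve, with Rpl36a at 0.27 on day 1 and 0.62 on day 5 (4078 against 2651.0). In sham DRG over sham nerve they went opposite ways, 0.90 for Rpl36al and -0.66 for Rpl36a (1675 against 2651.0). Rpl3 was at 0.11 on day 1 and 0.03 on day 5, where Rpl3l was at 0.40 and -0.37. A closing "a", as in Rpl13a, Rpl23a, Rpl27a, Rpl35a, Rpl37a and Rps15a, marks a distinct protein and not a copy. Rps4x, the X-linked form of Rps4, was at 0.19 on day 1 and 0.38 on day 5 (27582 against 21148).

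Genes with several probes show how far a difference depends on the probe. Of 14 such members, 8 had 2 or more probes detected on all arrays, giving 9 pairs of a brighter and a dimmer probe and 54 paired differences. The gap between the probes of a pair had a median of 0.37, as large as the members' median on day 5, and reached 0.58 in 14 of the 54. It was smallest on day 1 over sham nerve, at a median of 0.11 with opposite signs in 1 of 9 pairs. On day 5 over sham nerve it was 0.40 with opposite signs in 2 of 9, and for day 5 over day 1 it was 0.60, with opposite signs in 5 of 9. The largest gap, 1.04, was that of Rps24 on day 5. Its bright probe was at 0.18 (34123 against 30137) and its dim probe at 1.22 (428 against 183). Rpl23, a bright gene at -0.23 on day 5 by the probe used here, was at 0.56 and 0.70 by its other probes. In sham DRG over sham nerve the median gap was 0.49 with opposite signs in 3 of 9 pairs.

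Some ribosomal proteins lie outside the symbol rule. Fau, which makes a ubiquitin-like protein fused to a small subunit protein, had 9344 in day 1 nerve and 9959 in day 5 nerve against 6667 in sham nerve (0.49 and 0.58), and 6986 in day 5 DRG against 5662 in sham DRG (0.30). Rps3a1, whose symbol ends in a digit, was looked up after its values were seen, and had 1696 on day 1 and 1484 on day 5 against 1232 in sham nerve (0.46 and 0.27). It had 681 in sham DRG, a difference of -0.86 from sham nerve. These values lay within the range of the members.

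Genes that act beside the ribosomal proteins were compared by lists. Other mRNAs that begin with a 5′TOP tract, 18 on the array, some of them also in the lists of factors, had a median of 0.33 on day 1 (16 detected) and 0.48 on day 5 (16 detected), against sham nerve. At 2-fold 0 were called on day 1 and 1 on day 5, Hnrnpa1, a dim probe at 1.02. Of all genes, 6.54% were higher on day 1 and 6.30% on day 5. Of 2 genes chosen after their values were seen, Btf3, of the nascent polypeptide-associated complex, had 9450 on day 1 and 8745 on day 5 against 5027 in sham nerve (0.91 and 0.80), and Npm1, a nucleolar chaperone, had 16353 on day 1 against 8781 (0.90). The list's median in sham DRG over sham nerve was -0.23. There 4 of 15 were at least 2-fold lower, among them Vim at -1.83, Eef1d at -1.10 and Naca at -1.01. Of all genes, 11.0% were lower. The list's median in day 5 DRG over sham DRG was 0.14.

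Factors that assemble ribosomes in the nucleolus moved in another way from the ribosomal proteins. On day 1 their median was 0.83 over sham nerve (50 detected). At 2-fold 18 were higher and 0 lower, beside 6.54% and 3.59% of all genes. Among the 18 were Gnl3, with 4828 against 1639 (1.56), Brix1, with 4163 against 2055 (1.02), and Nhp2, with 4046 against 1043 (1.96). On day 5 the median was 0.11 (48 detected). Nhp2, at 1.08, was the 1 gene past 2-fold, beside 6.30% of all genes higher and 5.09% lower. Day 5 over day 1 had a median of -0.68, where the ribosomal proteins had 0.08. At 2-fold 9 assembly factors were lower and 0 higher, beside 4.65% and 3.25% of all genes. In day 5 DRG over sham DRG the assembly factors had a median of 0.14, beside 0.16 for the ribosomal proteins, and in sham DRG over sham nerve their median was -0.16. The difference between the lists was not tested, for want of replicates.

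Mitochondrial ribosomal proteins, which serve the separate ribosomes of mitochondria, had a median of 0.25 on day 1 and 0.05 on day 5 over sham nerve (70 detected each). At 2-fold 0 were higher on either day, beside 6.54% of all genes on day 1 and 6.30% on day 5. On day 5 1 was lower, beside 5.09% of all genes. It was Mrps6, at 1363 against 4025 (-1.56). In sham DRG over sham nerve the median of the mitochondrial list was 0.27, with 53 of 72 above 0, where 8 of 54 cytosolic members were. Initiation factors had medians of 0.30 on day 1 and 0.03 on day 5, with Eif4a1, the helicase that opens mRNA, at 18640 on day 1 against 7422 in sham nerve (1.33). Elongation factors had 0.65 and 0.33. The Eef1a1 probe was not detected on any array, and Eef1a2, the form of neurons and muscle, had 13658 in sham DRG against 353 in sham nerve (5.28). Subunits of RNA polymerases I and III and their partners had 0.12 and 0.04. The 500 brightest genes outside the members had a median of 0.14 on day 1 and -0.03 on day 5 over sham nerve, and 0.21 in sham DRG over sham nerve.

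**Figure D4:**
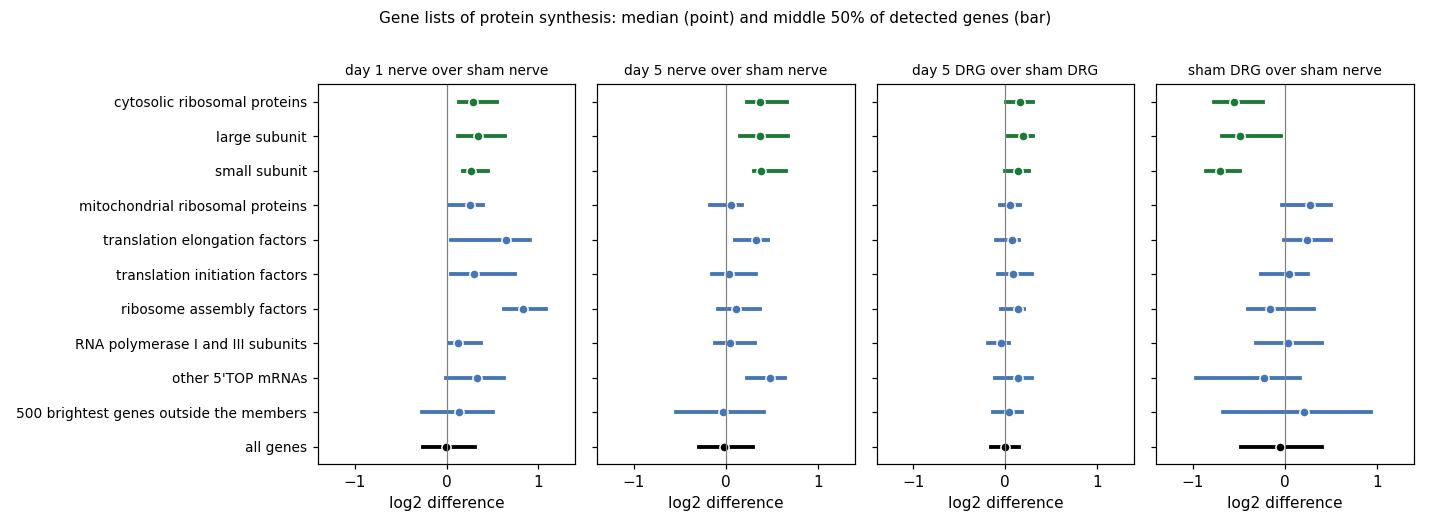
Median (point) and middle 50% (bar) of the log2 differences of detected genes in each list, for 4 comparisons. In day 5 nerve over sham nerve the cytosolic ribosomal proteins (0.37) and the other 5′TOP mRNAs (0.48) lie right of all genes (-0.02), and the assembly factors stand at 0.83 on day 1 and 0.11 on day 5.

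Genes often used to scale expression differed between the same arrays. Actb had 19887 in day 1 nerve and 13243 in day 5 nerve against 5216 in sham nerve (1.93 and 1.34), and Gapdh had 27815 on day 1 against 13385 (1.06) and 15392 on day 5 (0.20). Hprt had 9596 in sham DRG against 3140.3 in sham nerve (1.61). The 8 such genes detected in nerve had medians of 0.69 on day 1 and 0.46 on day 5, beside 0.29 and 0.37 for the ribosomal protein genes. All 8 were above 0 on day 1, while on day 5 6 were above and 2 below, the lowest at -0.53.

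The direction of the members' medians over sham nerve, between the injured nerves, in the DRG and in sham DRG over sham nerve was the same under the 8 other settings shown in the plot of medians by setting. The size depended on the scaling. The median ran between 0.20 and 0.42 on day 1 over sham nerve, between 0.35 and 0.45 on day 5, and between -0.76 and -0.38 in sham DRG over sham nerve. On day 1 the distance between members and all genes lay between 0.26 and 0.32.

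**Figure D5:**
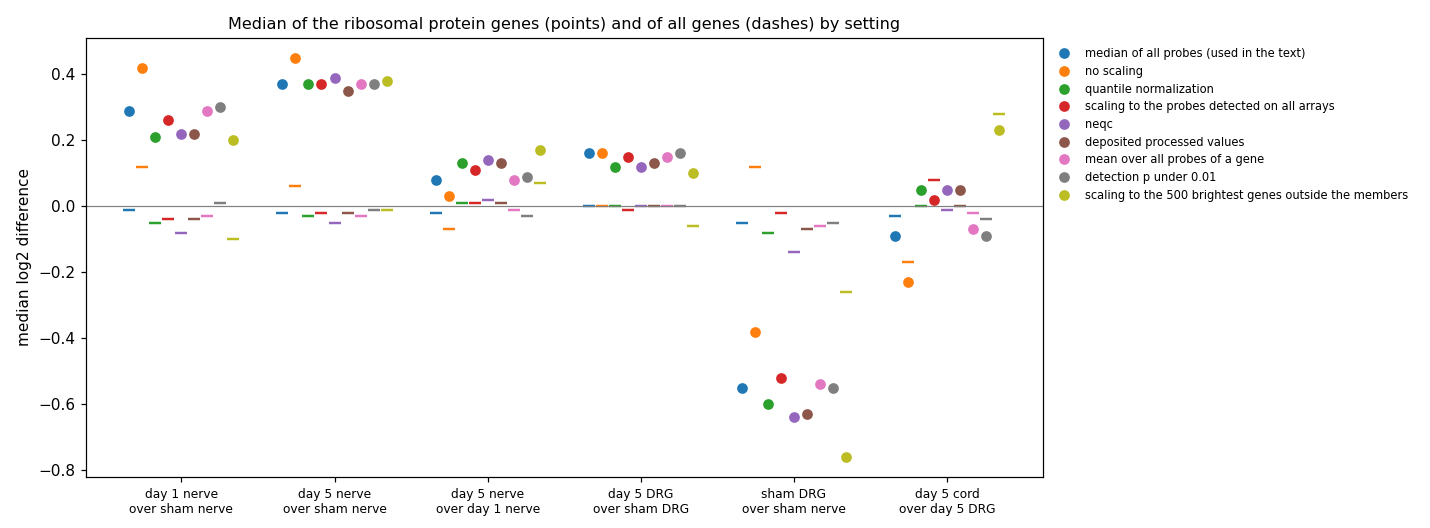
Median log2 difference of the ribosomal protein genes (points) and of all detected genes (dashes) in 6 comparisons, by processing setting. Points lie above the dashes of the same colour in the nerve and DRG injury comparisons, below them in sham DRG over sham nerve, and on either side of 0 in cord over DRG.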

How the data were processed

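Total RNA of 6 pools was measured on 6 Illumina bead arrays, 1 array per condition. The authors' non-normalized table was deposited with the mean bead intensity of every probe on every array, its standard error, how many beads it rests on (a count), and the p-value of its detection over negative control probes. They also deposited processed intensities, which share the same quantiles on all arrays, although the methods describe normalization to the median. The submitters' processing notes name Agilent Feature Extraction 10.5. No background correction of the non-normalized values is stated, and background left in a signal draws the fold of a dim probe toward 1. Between probes of the same gene, the dimmer probe gave the larger difference in some pairs and the smaller in others. On day 5 over sham nerve it gave the larger for Rps24 (1.22 against 0.18) and Rpl31 (1.06 against 0.31). It gave the smaller there for Rps3 (0.25 against 0.65) and Rps9 (0.09 against 0.31). Whether the folds of the brightest probes were also drawn toward 1 was not tested.

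Each array was scaled to the common median of all 25697 probes (factors 0.955 to 1.08). Arrays detected 50.9 to 54.5% of probes, at a median of 38 to 40 beads each. Precision is limited by having 1 array per condition. Undetected signals under an array's floor, its lowest detected signal (117 to 124), were set to that floor. The probe with the highest mean signal stood for a gene, and all 78 member probes carried the symbol RefSeq gives. A gene entered a comparison where either array detected it, and was called at 2-fold where the brighter array did. The calling rule was run on simulated folds with bead error only, which hold no variation between arrays or animals. Alternatives were no scaling, quantile normalization, scaling to the probes detected on all arrays, neqc (limma 3.58.1 in R 4.3.3), the deposited processed values, the mean over a gene's probes, a detection p under 0.01 and calls at 1.5-fold. Other steps used Python 3.11.15, numpy 2.4.6 and pandas 2.3.3.

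Members named in the text were the 5 highest and 5 lowest of each comparison, the 6 brightest and 6 dimmest, copies and their partners, stalk proteins and Rpsa, those whose probes disagreed by 0.58 or more, and the 10 widest ranges. Of other lists, the brightest members past 2-fold were named, with exceptions. The remaining members named were counted in a group of 5 or fewer, or stand in a list of all members that do not follow an order. The members and gene lists were chosen with earlier results of these data known, and no list was tested.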

Additional observations from a re-analysis of the deposited data

How the results depend on the processing

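Medians of the members kept their direction in 5 of the 6 comparisons under every alternative. Cord over DRG, at -0.09, turned to 0.05 with quantile normalization, neqc and the deposited processed values, to 0.02 with scaling to the probes detected on all arrays, and to 0.23 with scaling to the 500 brightest genes outside the members. That scaling and the removal of members with a mean signal under 1000 were chosen after seeing the data. Scaling multiplies a whole array by 1 factor, so members and all genes move by the same amount. In cord over DRG the members' median minus that of all genes was -0.05 in the main setting and without scaling. It was also -0.05 with the probes detected on all arrays and the 500 brightest genes. It was 0.06 with quantile normalization, neqc and the deposited processed values, and the cause of that turn was not tested. The median of all genes moved by over 0.1 in 3 settings, which differ from the main one by such factors. On day 1 over sham nerve it stood at 0.12 without scaling, beside -0.01. In sham DRG over sham nerve it stood at 0.12 without scaling and -0.26 with the 500 brightest genes, beside -0.05. In cord over DRG it stood at -0.17 without scaling, 0.28 with the 500 brightest genes and 0.08 with the probes detected on all arrays, beside -0.03.

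Counts past 2-fold were small, and over all alternatives 28 of them moved by over 1.5 times while 92 did not. Members higher on day 1 were 3 without scaling, 0 with the mean over probes (which averages Rplp0 with a probe at background), 0 without dim members and 14 at 1.5-fold, beside 1. On day 5 they were 4, 1 without dim members and 18 at 1.5-fold, beside 2. Lower on day 5 than on day 1 were 1 with neqc and 2 at 1.5-fold, beside 0, and higher in day 5 DRG 2 at 1.5-fold, beside 0. In sham DRG over sham nerve, 2 were higher without scaling, 2 at 1.5-fold and 0 without dim members, beside 1. Lower there, beside 4, were 1 without scaling, 2 with the probes detected on all arrays, 7 with quantile normalization, 8 with neqc, 11 with the deposited processed values, 13 with the 500 brightest genes and 25 at 1.5-fold. In cord over DRG, 2 were higher at 1.5-fold, 2 with the 500 brightest genes and 0 without dim members, beside 1. Lower there, beside 3, were 0 with quantile normalization and with the 500 brightest genes, 1 with neqc and with the probes detected on all arrays, and 7 at 1.5-fold.

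The members' share of summed signal stayed higher in nerve than in DRG or cord. With quantile normalization it was 5.29% on day 1 and 5.73% on day 5, 3.18% in sham DRG and 3.39% in cord. With neqc it was 5.17% in sham nerve, 6.00% on day 1 and 6.51% on day 5, 3.90% in day 5 DRG, 3.59% in sham DRG and 3.83% in cord. With the deposited processed values it was 5.00% in sham nerve, 5.79% on day 1 and 6.28% on day 5, 3.74% in day 5 DRG, 3.45% in sham DRG and 3.68% in cord. No paired analysis was possible because each condition has 1 array, and none could be left out. Dim probes, such as those of Rplp0, Rpl13a, Rpl3l, Rpl21 and Rps15a, have the least signal over background, and the 7 members without detection on all arrays have no level.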
